A study of Mus musculus with 6 samples.

Results

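Gata4, Gata6, Sox7, Sox17, Pdgfra, Dab2, Amn and Cubn, a set of genes known from the primitive endoderm, were followed from mouse embryonic stem cells (ESCs) to epiblast-like cells (EpiLCs). The 8 genes were chosen by name and are 8 of the 24736 genes in the expression table. All 8 were among the 14468 genes that passed a filter on low counts, which asked for at least 0.338 CPM (counts scaled to library size) in 3 libraries. Sox7 passed it through the 3 ESC libraries and only 1 EpiLC library, and Amn through the 3 EpiLC libraries and no ESC library, so these genes could enter the test only through the group in which they were higher. The other 6 genes passed in all 6 libraries.

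Both states came from the same wild-type XY line, HM1 TetON, which served as the parent of the engineered lines of the study and carries no ablation of Sox2. ESCs (0 h) were grown on mitotically inactivated mouse embryonic fibroblasts, called feeders, in medium with 10% serum and 1000 U/ml of LIF, the cytokine that sustains self-renewal. EpiLCs were grown for 48 h without feeders or serum in N2B27 to which bFGF (10 ng/ml) was added, along with 5 µM of LGK974, which blocks the secretion of WNT ligands. Each state had 3 biological replicates, sequenced as polyA RNA. Time, serum, LIF, feeders, bFGF and LGK974 all changed between the groups, so their parts cannot be told apart. The total expected count per library was between 16967741 and 28521848 in ESCs and between 30683164 and 35096210 in EpiLCs. The naive marker Nanog had a mean level of 324 TPM, a unit scaled for transcript length and library size, in ESCs and 12.1 in EpiLCs, and the epiblast markers Fgf5 and Pou3f1 went from 31.6 to 89.6 TPM and from 9.80 to 172 TPM, while Pou5f1, shared by both states, had means of 1335 and 1451 TPM. Of 10 ESC markers, 9 fell, most of all Tbx3, Klf4 and Esrrb (log2 fold changes of -6.59, -6.53 and -6.44). Of 8 EpiLC markers, 7 rose, with Pou3f1 (4.07), Sox3 (2.93) and Dnmt3b (2.54) ahead. The shares over all genes tested were 22.8% lower and 22.6% higher in EpiLCs.

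The primitive endoderm is the extraembryonic layer that separates from the epiblast in the blastocyst and later forms visceral and parietal endoderm. GATA6 is the factor that first sets it apart, under FGF signalling through ERK, and GATA4, SOX17 and SOX7 follow. The receptor tyrosine kinase PDGFRA marks its precursors and binds PDGF ligands. The endocytic adaptor DAB2 and the cubilin and amnionless pair, which form a receptor for intrinsic factor with vitamin B12 and for other proteins, serve nutrient uptake in visceral endoderm. Several of the genes are also used elsewhere, with Gata4, Gata6 and Sox17 in definitive endoderm, Gata4 and Gata6 in heart, Sox7 and Sox17 in endothelium and Pdgfra in fibroblasts and mesoderm. RNA from a whole culture does not give the cell of origin, and fewer cells of a type and less RNA per cell cannot be told apart here.

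Sox7 and Sox17 belong to the SOXF family, and their shared DNA-binding region raises the question whether reads can be assigned to the right gene. Their closest stretch of 1 read length, found without gaps in the GENCODE vM21 transcripts, is shown because Sox17 fell and Sox7 did not pass the test. It lies within 1 exon and is coding in both genes, at chr14:63947785-63947860 on the plus strand for Sox7 and at chr1:4492563-4492638 on the minus strand for Sox17 (GRCm38). Capitals mark the bases that differ.
Sox7: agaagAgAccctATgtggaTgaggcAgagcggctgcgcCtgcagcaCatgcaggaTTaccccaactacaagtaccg
Sox17: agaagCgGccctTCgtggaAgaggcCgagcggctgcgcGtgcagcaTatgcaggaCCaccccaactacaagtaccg
Of the 76 bases, 66 matched and 10 differed, and the longest run shared by the 2 transcripts was 22 bases. None of the 76-base windows of the longest transcript of any of the 8 genes occurred in a transcript of another gene (0 of 3224 for Sox7 and 0 of 3167 for Sox17).

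Promoter sequence from RefSeq (GRCm38.p6) was searched for 4 of the 8 genes, Cubn, Pdgfra, Amn and Dab2, with 2 start sites for Dab2. Gata4, Sox7 and Sox17 had no promoter entry. Gata6, the gene that changed most, was left out of the search, so its promoter was not tested for either motif. The windows held the 240 bases from 250 to 11 before the start that the entry uses. For Pdgfra and the other Dab2 entry that start lies inside the span of the gene given with its values, and not at its outer end. The GATA motif (AGATAA, with T also allowed as the first base and G as the last) and the SOX core ACAAT were searched on both strands. Among 32851 promoter windows of the same length, 25.9% held a GATA motif and 27.1% the SOX core. Of the 5 windows, only that of the first Dab2 start held a GATA motif, and none held the SOX core. It is shown beside a promoter of a gene that fell, Pdgfra, and that of the gene that rose, Amn, with the motif in capitals.
Dab2, chr15:6299539-6299778, plus strand: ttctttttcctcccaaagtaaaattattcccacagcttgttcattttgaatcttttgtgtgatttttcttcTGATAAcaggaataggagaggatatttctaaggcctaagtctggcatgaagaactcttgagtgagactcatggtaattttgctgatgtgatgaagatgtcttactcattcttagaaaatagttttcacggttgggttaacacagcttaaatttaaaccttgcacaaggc
Pdgfra, chr5:75152001-75152240, plus strand: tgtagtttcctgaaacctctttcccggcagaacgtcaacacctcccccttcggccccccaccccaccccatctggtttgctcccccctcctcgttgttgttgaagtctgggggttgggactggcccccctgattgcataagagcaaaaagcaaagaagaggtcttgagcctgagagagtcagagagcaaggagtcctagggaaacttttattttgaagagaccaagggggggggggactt
Amn, chr12:111270846-111271085, plus strand: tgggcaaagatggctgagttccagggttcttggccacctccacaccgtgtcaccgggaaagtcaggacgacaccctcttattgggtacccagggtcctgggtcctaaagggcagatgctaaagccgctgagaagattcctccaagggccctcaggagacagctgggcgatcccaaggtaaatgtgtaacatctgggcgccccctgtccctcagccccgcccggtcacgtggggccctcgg
The Dab2 motif lay 179 bases before the start, and the GC content was 35.8% in this window, 55% for Pdgfra and 61.2% for Amn. Cubn (chr2:13491887-13492126, minus strand) and the other Dab2 start (chr15:6386498-6386737, plus strand) had neither motif. A match of these letters is a description of the window and not of binding.

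Of the 8 genes, 5 fell in EpiLCs (Gata4, Gata6, Sox17, Pdgfra and Cubn), 1 rose (Amn) and 2 did not pass the test (Sox7 and Dab2), by edgeR's quasi-likelihood test with Benjamini-Hochberg adjustment at 0.05. Over all genes tested, 22.8% were lower and 22.6% higher in EpiLCs. The median log2 fold change of the 8 genes was -1.89, beside -0.0017 over all genes tested. All 3 EpiLC libraries lay below all 3 ESC libraries for 6 genes, the 5 that fell and Sox7, as they did for 29% of genes tested. Amn was the gene with the reverse order, which 30.3% of genes tested had, and the groups overlapped for Dab2. The summed level of the 8 genes was 69.0, 44.5 and 35.3 TPM in ESC replicates 1, 2 and 3 and between 10.4 and 11.4 TPM in EpiLCs.

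**Figure D1:**
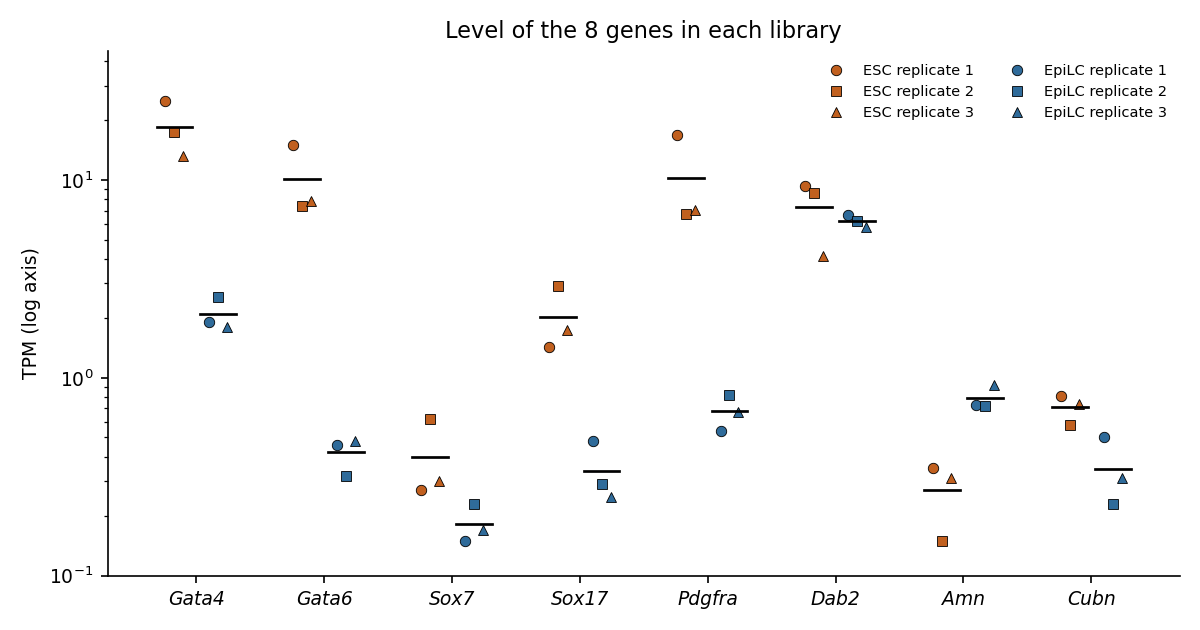
Level of the 8 genes in TPM (log axis) in each library, with ESCs in orange and EpiLCs in blue, a symbol for each replicate and a horizontal line at the group mean. Gata4, Gata6, Pdgfra and Sox17 sit apart between the states, Dab2 overlaps, and Amn is the gene whose EpiLC values all lie above its ESC values.

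In ESCs the order of levels, per transcript length, was Gata4, Pdgfra, Gata6, Dab2, Sox17, Cubn, Sox7 and Amn. The ranges of the first 4 overlapped from neighbour to neighbour, and so did those of Cubn with Sox7 and Sox7 with Amn. Sox17 stood apart from both of its neighbours. Gata4, the highest, was above 73.4% of all genes in mean TPM in ESCs, and Amn was above 40.5%. In EpiLCs the order began with Dab2, then Gata4, then Amn, Pdgfra, Gata6, Cubn, Sox17 and Sox7. Dab2, Gata4 and Sox7 were each separated from their neighbours by their ranges. Amn, the lowest of the 8 in ESCs, overlapped Pdgfra in EpiLCs, and Gata6, Cubn and Sox17 overlapped each other in a chain.

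Gata6, the zinc finger factor at the head of primitive endoderm specification (chr18:11052510-11085636, plus strand), changed most of the 8 genes. Its level was 14.96, 7.40 and 7.84 TPM in the ESC replicates and 0.46, 0.32 and 0.48 TPM in the EpiLC replicates. ESC replicate 1 was the highest, and the lowest ESC value was far above every EpiLC value. The means were 10.1 ± 4.24 and 0.42 ± 0.0872 TPM (SD, n = 3 each). Gata6 was 24.8-fold lower in EpiLCs, with a log2 fold change of -4.63 (SE 0.37, 95% confidence interval -5.50 to -3.76, edgeR adjusted p = 2.14e-04). It went from above 65.9% of genes to above 44.0% by mean TPM, and its EpiLC values rested on 24, 16 and 22 counts.

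Gata4, the related factor that follows Gata6 in the lineage (chr14:63198914-63271712, minus strand), measured 25.08, 17.47 and 13.16 TPM over the ESC replicates. The EpiLC replicates had 1.91, 2.55 and 1.81 TPM. The groups were well apart, and Gata4 remained measurable in EpiLCs with between 89 and 137 counts a library. The means were 18.6 ± 6.04 and 2.09 ± 0.401 TPM, and the level was 9.19-fold lower in EpiLCs (log2 fold change -3.20, SE 0.27, 95% confidence interval -3.83 to -2.57, edgeR adjusted p = 2.46e-04). Gata6 fell further than Gata4 in these values. The ratio of Gata4 to Gata6 in TPM was 1.68, 2.36 and 1.68 in ESCs and 4.15, 7.97 and 3.77 in EpiLCs. The ratios did not overlap between the states, and the difference of 1.41 on the log2 scale had a 2-sided exact permutation p of 0.1, the smallest that 3 against 3 libraries allow. The transcripts of the 2 genes shared a run of at most 18 bases.

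Sox17, the SOXF factor that GATA factors act with in primitive and definitive endoderm (chr1:4490928-4497426, minus strand), measured 1.43, 2.91 and 1.74 TPM over the ESC replicates. The EpiLC replicates had 0.48, 0.29 and 0.25 TPM. The groups were apart, and here ESC replicate 2 was the highest. Sox17 was 6.41-fold lower in EpiLCs (log2 fold change -2.68, SE 0.40, 95% confidence interval -3.62 to -1.74, edgeR adjusted p = 0.00220), with means of 2.03 ± 0.781 and 0.34 ± 0.123 TPM. Sox17 was thus the factor of the set at the lowest level among those that fell.

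Sox7, its relative in parietal endoderm and endothelium (chr14:63943706-63950732, plus strand), was near the floor of the measurement. It had 9, 16 and 13 counts in ESCs, or 0.27, 0.62 and 0.30 TPM, and 8, 12 and 8 counts in EpiLCs, or 0.15, 0.23 and 0.17 TPM. The EpiLC values all lay below the ESC values, but by little. The exact Poisson 95% intervals of the counts cover counting error only and come from libraries of unlike depth. They ran from 4.12 to 17.1 for the lowest ESC count and from 6.20 to 21.0 for the highest EpiLC count. The log2 fold change was -1.09 (SE 0.44, 95% confidence interval -2.13 to -0.06) and did not pass the test (edgeR adjusted p = 0.0797). The ratio of Sox17 to Sox7 was 5.30, 4.69 and 5.80 in ESCs and 3.20, 1.26 and 1.47 in EpiLCs (log2 difference -1.53, 2-sided exact permutation p = 0.1, the smallest possible).

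Pdgfra, the receptor used to sort primitive endoderm precursors (chr5:75151322-75198206, plus strand), measured 16.80, 6.76 and 7.09 TPM over the ESC replicates. The EpiLC replicates had 0.54, 0.82 and 0.67 TPM. ESC replicate 1 was more than 2 times as high as either other ESC library, and all 3 were above every EpiLC library. The means were 10.2 ± 5.70 and 0.677 ± 0.140 TPM, and Pdgfra was 15.0-fold lower in EpiLCs (log2 fold change -3.91, SE 0.45, 95% confidence interval -4.98 to -2.84, edgeR adjusted p = 8.20e-04). Without ESC replicate 1 the log2 fold change was -3.31, and Pdgfra still passed the test. Pdgfra and Gata6 were close to equal in ESCs, with ratios of 1.12, 0.914 and 0.904, and the ratios in EpiLCs were 1.17, 2.56 and 1.40 (log2 difference 0.73, 2-sided exact permutation p = 0.1, the smallest possible).

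The remaining 3 genes serve endocytosis. Dab2, the clathrin adaptor that carries receptors such as megalin into the cell (chr15:6299788-6440715, plus strand), measured 9.34, 8.57 and 4.11 TPM over the ESC replicates and 6.67, 6.21 and 5.77 TPM over the EpiLC replicates. The EpiLC values lay inside the ESC range, with ESC replicate 3 the lowest of all libraries. The log2 fold change was -0.26 (SE 0.29, 95% confidence interval -0.95 to 0.42, edgeR adjusted p = 0.483). The interval does not reach the falls of Gata4, Gata6 or Pdgfra. Leaving out ESC replicate 3 gave a fall that passed the test, of -0.55 on the log2 scale (edgeR adjusted p = 0.00999). Dab2 was below Gata4 in each ESC library, with ratios of 0.372, 0.491 and 0.312, and above it in each EpiLC library, with ratios of 3.49, 2.44 and 3.19 (log2 difference 2.96, 2-sided exact permutation p = 0.1, the smallest possible).

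Cubn, the large extracellular receptor cubilin (chr2:13276338-13491876, minus strand), measured 0.81, 0.58 and 0.74 TPM over the ESC replicates and 0.50, 0.23 and 0.31 TPM over the EpiLC replicates. The groups did not overlap, but EpiLC replicate 1 lay close to ESC replicate 2. Cubn was 2.14-fold lower in EpiLCs (log2 fold change -1.10, SE 0.33, 95% confidence interval -1.87 to -0.32, edgeR adjusted p = 0.0314). The call was lost without any of 4 libraries, with a log2 fold change of -1.01 without ESC replicate 1, -1.06 without ESC replicate 3, -0.86 without EpiLC replicate 2 and -1.02 without EpiLC replicate 3 (edgeR adjusted p between 0.0585 and 0.0989).

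Amn, which encodes the membrane anchor amnionless that brings cubilin to the cell surface (chr12:111271096-111276426, plus strand), was the one gene that rose. Its level was 0.35, 0.15 and 0.31 TPM over the ESC replicates and 0.73, 0.72 and 0.92 TPM over the EpiLC replicates. All values were low, from 6, 2 and 7 counts in ESCs and 20, 19 and 22 counts in EpiLCs. Amn reached the count filter in 3 EpiLC and 0 ESC libraries, and so was tested only through the group where it was higher. The exact Poisson 95% interval was 2.81 to 14.4 for the highest ESC count and 11.4 to 29.7 for the lowest EpiLC count, from libraries of unlike depth. Amn was 2.69-fold higher in EpiLCs (log2 fold change 1.43, SE 0.38, 95% confidence interval 0.54 to 2.32, edgeR adjusted p = 0.0199). It did not pass the test in DESeq2 (1.45, adjusted p = 0.0805), nor in edgeR without EpiLC replicate 1 (1.49, adjusted p = 0.0627), 2 (1.50, adjusted p = 0.0546) or 3 (1.31, adjusted p = 0.0683).

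The levels of cubilin and its anchor were also compared within each library. The ratio of Cubn to Amn in TPM was 2.31, 3.87 and 2.39 in ESCs and 0.685, 0.319 and 0.337 in EpiLCs. Cubn exceeded Amn in each ESC library and was below it in each EpiLC library (log2 difference -2.73, 2-sided exact permutation p = 0.1, the smallest possible). The ratio of Dab2 to Cubn ranged from 5.55 to 14.8 in ESCs and from 13.3 to 27.0 in EpiLCs and overlapped between the states (exact permutation p = 0.2). Adjusted over the 6 ratios compared, the exact permutation p was 0.12 for the 5 that did not overlap and 0.2 for this one.

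**Figure D2:**
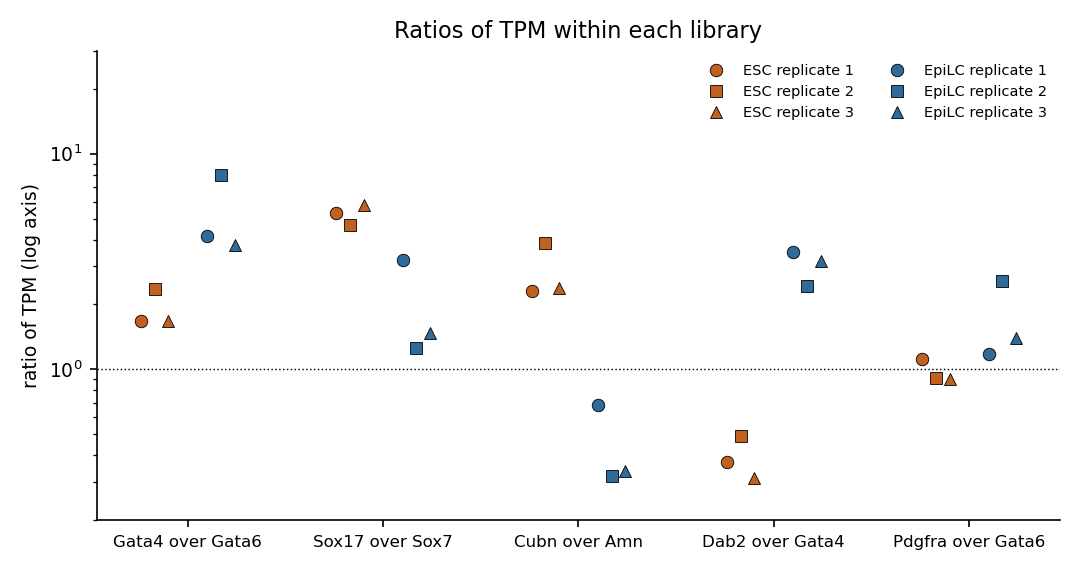
Ratio of TPM of 2 genes within each library (log axis), with ESCs in orange, EpiLCs in blue, a symbol for each replicate and a dotted line at 1. The ratio of Cubn to Amn passes from 2.31 or more in ESCs to 0.685 or less in EpiLCs, and that of Dab2 to Gata4 from 0.491 or less to 2.44 or more.

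The 8 genes differed in which ESC library was highest. Gata4, Gata6 and Pdgfra were highest in ESC replicate 1, and so, by little, were Dab2, Amn and Cubn. Sox7 and Sox17 were highest in ESC replicate 2. The highest ESC library exceeded the lowest by 1.40 times for Cubn and 2.69 times for Pdgfra in CPM, and the other 6 genes lay between. Markers of other cells moved over the same libraries. The summed level of 22 fibroblast markers was 698, 2642 and 289 TPM in ESC replicates 1, 2 and 3 and between 232 and 280 TPM in EpiLCs, and Col1a1, a collagen of fibroblasts, measured 90.5, 489 and 28.3 TPM in the same order. Of the 21 fibroblast markers tested, 19 had the order replicate 2, 1, 3, against 0 of the 8 genes and 25% of all genes tested. Of the 21, 11 fell and 0 rose, beside 22.8% and 22.6% of all genes tested. The falls were led by Col1a1, Col1a2 and Col5a2 (log2 fold changes of -4.74, -4.70 and -4.53). But 4 fell without EpiLC replicate 1 or EpiLC replicate 3, and 1 rose without ESC replicate 2. The methods of the study describe letting feeders settle on plastic before differentiation, and whether the ESC libraries were made after that step is not given in the sources used here. The part of fibroblast RNA in the levels of the 8 genes was not tested, and ESC replicate 1 also held more of these markers than the EpiLC libraries. Without ESC replicate 2, where they were highest, the log2 fold changes were -3.24 for Gata4, -4.81 for Gata6, -2.33 for Sox17, -4.15 for Pdgfra, -1.22 for Cubn and 1.20 for Amn, all past the test, and -0.67 for Sox7 and -0.12 for Dab2, which did not pass it.

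The summed level of 14 markers of mesendoderm and definitive endoderm was 648, 271 and 252 TPM in the ESC replicates. In EpiLCs it was 18.9, 18.4 and 68.7 TPM. ESC replicate 1 was thus highest for this list, for 10 of its 14 genes and for 6 of the 8 genes described here. Its lead was small for Dab2 (9.34 against 8.57 TPM in replicate 2) and Cubn (0.81 against 0.74 TPM in replicate 3). Amn had 6 and 7 counts in replicates 1 and 3, or 0.35 and 0.31 TPM. Over all genes tested, the orders 1, 2, 3 and 1, 3, 2 of the ESC replicates were held by 12.5% and 15%. The list fell in 10 of 14 genes and rose in 0, where 22.8% of all genes tested fell and 22.6% rose. The falls included Lhx1 (log2 fold change -5.65), Mixl1 (-5.17) and Gsc (-5.12), and numbered 5 with at least 10 counts in every sample. Gsc reached the count filter in no EpiLC library but replicate 3, so it was tested only through ESCs, where it was higher. The streak gene T measured 180, 73.0 and 40.0 TPM over the ESC replicates and 0.87, 0.69 and 30.7 TPM over the EpiLC replicates, with a log2 fold change of -3.23 that did not pass the test (edgeR adjusted p = 0.0925). The part of these cells in the levels of Gata4, Gata6 and Pdgfra was not tested, as ESC replicates 2 and 3 also held more of these markers than any EpiLC library. Without ESC replicate 1 the log2 fold changes were -2.94 for Gata4, -4.25 for Gata6, -3.31 for Pdgfra and -2.92 for Sox17.

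**Figure D3:**
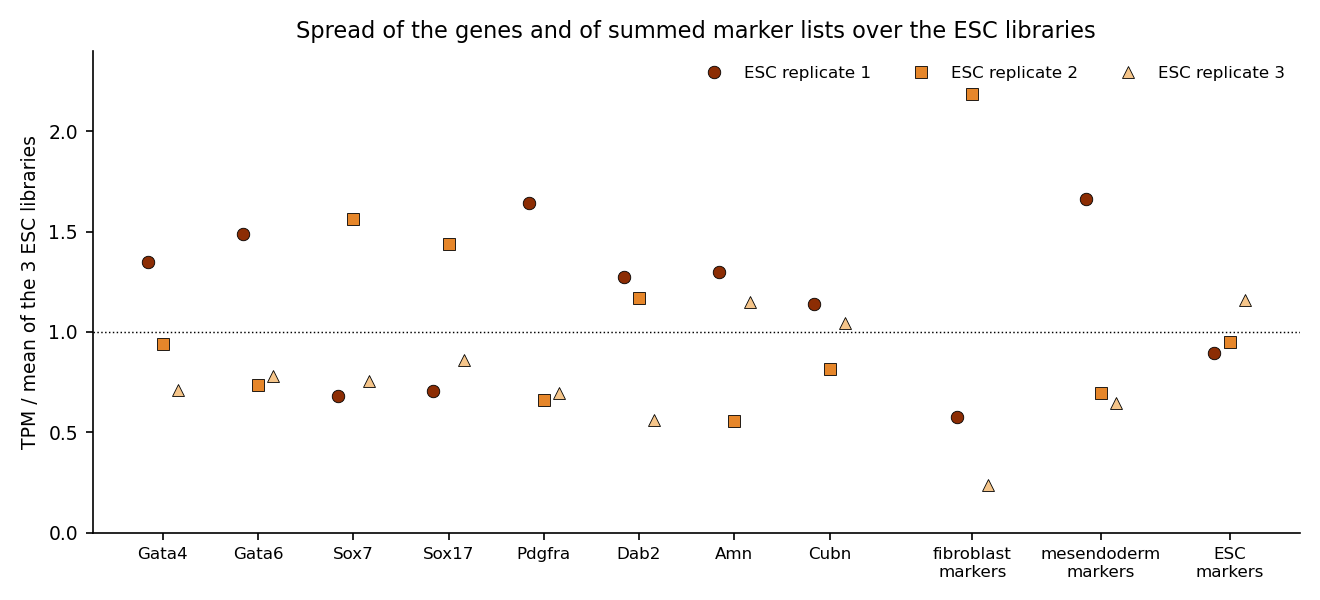
TPM of each gene, and summed TPM of 3 marker lists, in each ESC library divided by the mean of the 3 ESC libraries (dotted line at 1). Sox7 and Sox17 are highest in ESC replicate 2, where the fibroblast sum reaches 2.18. The other 6 genes are highest in ESC replicate 1, where the mesendoderm sum reaches 1.66, but by little for Dab2, Amn and Cubn.

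Other tissues that use these factors were also checked, beside shares of 22.8% lower and 22.6% higher over all genes tested. Trophectoderm markers summed to between 350.5 and 616 TPM in ESCs and between 189 and 263 TPM in EpiLCs, with 8 of 14 tested genes lower and 1 higher, and the placental marker Tpbpa was at 0 in all libraries. Without EpiLC replicate 1 or EpiLC replicate 2 the lower genes numbered 5, and without ESC replicate 2 the higher genes numbered 2. The largest falls were Tfap2c (-3.96), Gata3 (-3.57) and Eomes (-3.32), and the rise was Krt7 (1.80). Endothelial and blood markers summed to between 84.4 and 110.1 TPM and between 69.3 and 71.7 TPM, with 7 of 12 lower and 2 higher. The number higher was near the share over all genes tested, and was 1 without ESC replicate 1 or any EpiLC replicate. Vwf (-4.41) and Pecam1 (-2.82) were among the falls, and Egfl7 rose by 0.43. Kdr, the VEGF receptor of endothelium and mesoderm, was at 7.73 and 0.34 TPM in the means, and Cldn5, an endothelial tight junction gene, was at 0.267 and 2.68 TPM. Cardiac markers summed to between 16.4 and 27.0 TPM and between 23.2 and 38.6 TPM, with 2 of 8 lower and 2 higher, near the shares over all genes tested, and Nppa at 0 in all libraries. The rises were the myosin heavy chains Myh6 and Myh7 (log2 fold changes of 1.53 and 1.51), and the number that fell was 4 without the filter and 1 with at least 10 counts in every sample. The trophectoderm list includes Gata2 and Gata3 and the endothelial list Gata1. Their part in the levels of the 8 genes was not tested.

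Among the 9 genes of the GATA and SOXF families, 8 were tested, of which 5 fell and 1 rose, beside 22.8% and 22.6% over all genes tested. The median log2 fold change was -2.23. This list keeps Gata4, Gata6, Sox7 and Sox17, so its counts and median partly repeat those of the 8 genes. Outside them, Gata1 and Gata3 fell, Sox18 rose and Gata2 did not pass the test. Gata3, a factor of trophectoderm, fell by 3.57 on the log2 scale (SE 0.51, edgeR adjusted p = 0.00187), from a mean of 3.13 to 0.273 TPM. Gata1, a factor of red blood cells, fell by 1.78 (SE 0.35, edgeR adjusted p = 0.00684), from 1.57 to 0.477 TPM. Gata2, a factor of blood stem cells and trophoblast, was at 2.29 and 1.02 TPM in the means, with ESC replicate 2 the highest at 4.11 TPM, and did not pass the test (log2 fold change -1.18, edgeR adjusted p = 0.0956). Gata5 was not tested, having 0 counts in each ESC library, which allows up to 0.105 to 0.177 CPM, and at most 1 count in an EpiLC library.

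Sox18 is the SOXF factor of endothelium. Its ESC replicates had 0.43, 0.56 and 0.33 TPM, from 7 counts in each library, and its EpiLC replicates 0.89, 1.36 and 1.23 TPM. The groups did not overlap, and Sox18 rose by 1.37 on the log2 scale (SE 0.34, edgeR adjusted p = 0.0161), but without ESC replicate 1, EpiLC replicate 2 or EpiLC replicate 3 the number of rising genes in the family was 0. Like Amn, Sox18 entered the test through the group in which it was higher, since it reached the count filter in all 3 EpiLC libraries but only 1 ESC library.

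**Figure D4:**
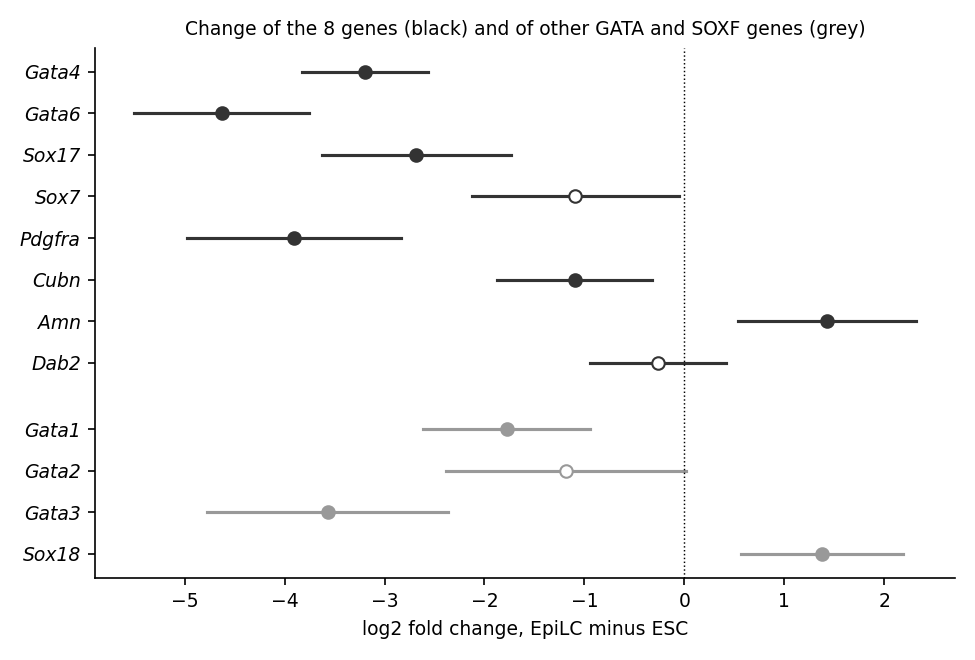
Log2 fold change of EpiLCs against ESCs, with 95% confidence intervals from edgeR, for the 8 genes (black) and for the other tested GATA and SOXF genes (grey). Filled points passed the adjusted p threshold of 0.05 and open points (Sox7, Dab2 and Gata2) did not. Amn at 1.43 and Sox18 at 1.37 are the points right of 0 that passed.

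Other transcription factors of endoderm fell in 13 of 19 tested genes and rose in 2, where 22.8% of all genes tested fell and 22.6% rose, with a median log2 fold change of -2.10. The largest falls at 1 TPM or more were Lhx1, Foxq1 and Gsc, and of these Lhx1 and Gsc are also known from the anterior streak. Foxq1 fell by 5.26 on the log2 scale (edgeR adjusted p = 1.34e-04), from a mean of 14.3 to 0.377 TPM. Foxa2, shared by visceral and definitive endoderm, was at 5.16 and 1.07 TPM (log2 fold change -2.31), and the visceral endoderm factor Hnf4a had means of 0.32 TPM before and 0.0233 TPM after 48 h. Otx2, which serves both visceral endoderm and epiblast, rose by 1.87 (edgeR adjusted p = 0.00110), from 45.9 to 175 TPM. The other rise was Sox18.

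The PDGF list, taken without Pdgfra, fell in 5 of 6 tested genes and rose in 0 (22.8% and 22.6% over the whole table), with a median of -2.13. Pdgfa, the ligand of PDGFRA, measured 77.3, 102 and 66.1 TPM over the ESC replicates and 6.17, 4.92 and 6.76 TPM over the EpiLC replicates. The ligand and its receptor were thus both lower in every EpiLC library, with log2 fold changes of -3.83 for Pdgfa (edgeR adjusted p = 8.20e-05) and -3.91 for Pdgfra. The ligand Pdgfc fell by 2.65 on the log2 scale. Pdgfrb, the related receptor, fell by 2.92 (edgeR adjusted p = 0.00933) but was highest in ESC replicate 2, at 22.0 TPM against 7.23 and 3.85 TPM, and it is also one of the fibroblast markers. Of the 6 genes, 4 had the ESC order of the fibroblast markers, which Pdgfra did not have.

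The list of FGF and ERK signalling, which in the blastocyst acts upstream of Gata6, was tested in full. Of 23 genes, 3 fell and 9 rose, against 22.8% and 22.6% of all genes tested, with a median of 0.14. Fgfr2, a receptor of the primitive endoderm, rose by 1.04 on the log2 scale (edgeR adjusted p = 0.00939), from 6.22 to 13.1 TPM, and Fgfr1 rose by 0.59. The negative regulators of ERK, Dusp4 and Dusp6, rose by 1.99 and 1.13. The falls were small, at -0.32 for Etv5, -0.27 for Map2k1 and -0.24 for Grb2. The ligand Fgf4 was at 59.7 and 48.9 TPM and did not pass the test (edgeR adjusted p = 0.189). bFGF was in the EpiLC medium, and its part in these values cannot be told apart from that of the other changes.

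Of 27 tested partners of Dab2, Cubn and Amn in endocytosis, 13 fell and 6 rose, with a median of -0.22, beside the 22.8% lower and 22.6% higher over all genes tested. The number that rose was near that background. Lrp2, the megalin receptor that works with cubilin and binds DAB2, measured 5.53, 7.63 and 9.79 TPM over the ESC replicates and 24.5, 27.5 and 23.6 TPM over the EpiLC replicates. It rose by 1.66 on the log2 scale (SE 0.20, edgeR adjusted p = 9.43e-04). Dab1, the neural relative of Dab2, rose from 13.0 to 37.9 TPM (log2 fold change 1.79, edgeR adjusted p = 9.78e-05). The falls included the Fc receptor Fcgrt (-3.72), the clathrin light chain Cltb (-2.27), Lrp1 (-1.61), the vitamin B12 carrier Tcn2 (-1.53) and the chaperone Lrpap1 (-1.24). Fcgrt reached the count filter in no EpiLC library but replicate 2, so it was tested only through ESCs, where it was higher. Gif, intrinsic factor, was at 0 in all libraries.

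Of 34 products of visceral and parietal endoderm, 23 were tested, 12 fell and 2 rose, with a median of -1.79. The shares over all genes tested, for these and for the basement membrane genes that follow, were 22.8% lower and 22.6% higher. The secreted proteins among them differed widely in level. Fgb was at 0 in all libraries, and Afp and Ttr were at 0 in ESCs and had means of 0.02 and 0.0167 TPM in EpiLCs. Apoe was abundant, with means of 663 and 184 TPM, and Trf and Rbp4 were at 4.25 and 2.10 TPM in ESCs and did not pass the test. Spink1 (-4.76), Pga5 (-3.50) and Lefty1 (-3.36) had the largest falls at 1 TPM or more, and Car4 rose by 1.38. Spink1 lay below the count filter in every EpiLC library, so it was tested only through the ESC libraries, where it was higher. Of 20 basement membrane genes, 12 fell and 1, Dag1 (0.35), rose, with a median of -1.25, and the largest falls were Fn1 (-3.37), Lama1 (-2.24) and Hspg2 (-2.21). Of these 20 genes, 14 had the ESC order of the fibroblast markers, and their part was not tested. Sparc and Col4a1, the abundant products of parietal endoderm, did not pass the test (log2 fold changes of -1.20 and -0.68).

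**Figure D5:**
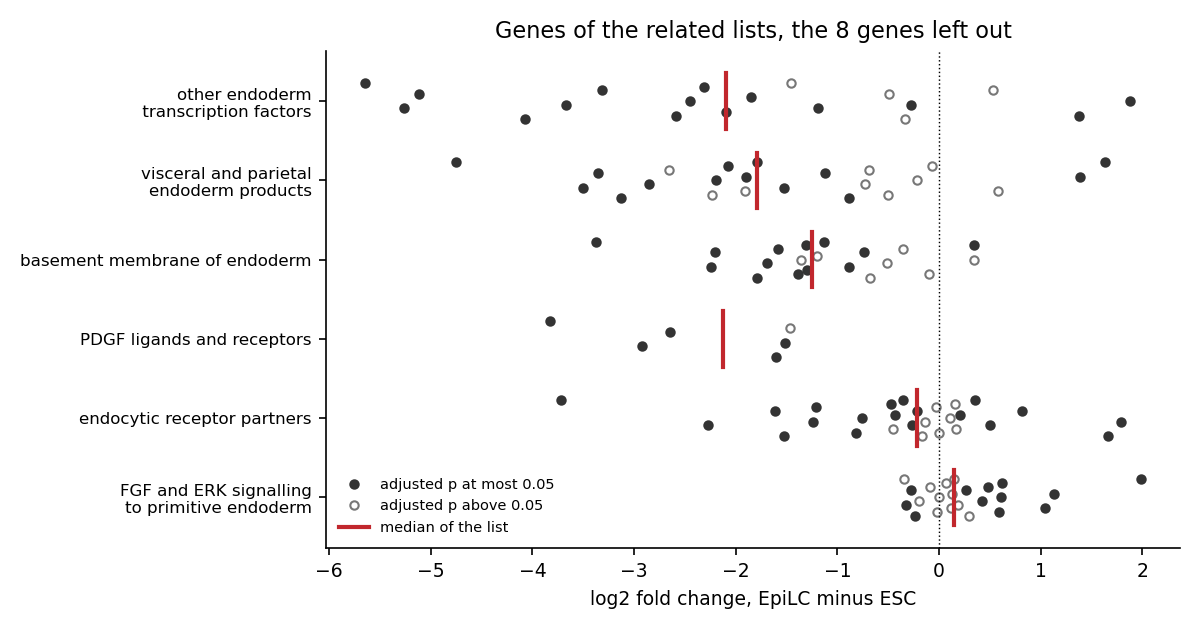
Log2 fold change of each tested gene in 6 related lists, the 8 genes left out, with filled points at an adjusted p of at most 0.05 by edgeR and a red line at the median of each list. The medians run from -2.13 for PDGF ligands and receptors to 0.14 for FGF and ERK signalling.

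Genes with the most similar profile over the 6 libraries were sought among 10616 genes whose mean was 5 CPM or more, by Pearson's r of log2 CPM. The 6 points fall in 2 groups, so r mostly describes the difference between the states. The closest were Efna3 (0.999), Kdsr (0.998) and Parp10 (0.997) for Gata4, and Pou6f1 (0.998), Vstm2b (0.998) and Lima1 (0.998) for Gata6. For Sox17 they were Zfyve1 (0.997), Tmem68 (0.996) and Tsc22d1 (0.995), and for Sox7 they were Crtap (0.990), Ndrg4 (0.989) and Ggh (0.989). Pdgfra was closest to Plxna2 (0.999), Tap2 (0.998) and St6galnac4 (0.997). Among the genes of endocytosis, Dab2 was closest to Extl3 (0.988), Wdr45b (0.986) and Zfp131 (0.986), Amn to Mdp1 (0.998), Abi2 (0.998) and R3hcc1l (0.997), and Cubn to Nsmce2 (0.986), Tmeff1 (0.981) and Zfp280b (0.980). Closeness of profile did not mean a change of like size, as Zfyve1 changed by -0.65 and Sox17 by -2.68 on the log2 scale. Among the 8 genes, the highest values were 0.990 for Gata4 with Pdgfra and 0.983 for Gata6 with Pdgfra and for Gata4 with Gata6. Amn was negatively related to the 7 others, from -0.367 with Dab2 to -0.974 with Sox17.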

How the data were processed

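PolyA RNA of wild-type ESCs (0 h) and EpiLCs (48 h) was sequenced by the authors, with 3 biological replicates of each. The labels and the results of the study give 48 h for EpiLCs, whereas its culture methods give a longer time. Adapters were trimmed with cutadapt 1.16 and strand-specific single-end reads of 76 nt were mapped with STAR 2.5.2a and counted with RSEM 1.3.0 against mm10 RefSeq genes. Expected counts from RSEM, as the authors deposited them, carry no normalization and split reads that map to several genes. In each library, between 4.27% and 4.65% of these values had a fractional part. TPM, scaled for transcript length and library, were deposited by the authors in the same table. DESeq2 1.16.1 was the authors' tool for differential expression.

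Expected counts were rounded and tested with edgeR 4.0.16 in R 4.3.3 (TMM factors from 0.979 to 1.02, filterByExpr, quasi-likelihood test, Benjamini-Hochberg adjustment over 14468 genes, threshold 0.05). Fold changes are EpiLC over ESC. A list gene short of the count filter in libraries of 1 group could be tested only through the other group, as were Spink1, Fcgrt and Gsc. Ratios were compared by an exact permutation test (scipy 1.17.1). A count of 3 corresponds to between 0.0855 and 0.177 CPM. Coordinates of genes and promoters come from RefSeq (GRCm38.p6), and transcripts from GENCODE vM21. The fit was repeated in DESeq2 1.42.0, in limma 3.58.1 on log2(TPM + 1) and log2(TPM + 0.1), and in edgeR with upper-quartile factors, without the filter, with a filter of 10 counts in every sample, with the replicate number as a block, and without each library.

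The 8 genes, the related lists and the marker lists were chosen with earlier results of these data known, so counts within them are descriptions. Named from each list were up to 3 genes with the largest fall and up to 3 with the largest rise among called genes at 1 TPM or more in the higher group, besides all GATA and SOXF genes, Lrp2, defining markers and the 3 genes most like each of the 8. Further list genes were named for their known role after their values were seen, and a gene that this rule names is not reported here. The scripts were tested on simulated data.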

Additional observations from a re-analysis of the deposited data

How the results depend on the processing

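Over 8 genes and the alternatives that could be fitted, 0 log2 fold changes turned direction. Of the fits that left out a library, 40 gave the same outcome of the test, 7 lost a call and 1 gained it. Of the other fits, 53 gave the same outcome and 1, Amn in DESeq2, lost the call. The same outcomes include fits of Sox7 and Dab2, which had no call to keep. Over all alternatives the log2 fold change ranged from -3.39 to -2.63 for Gata4, -4.81 to -2.90 for Gata6, -2.99 to -1.15 for Sox17, -4.15 to -2.63 for Pdgfra, -1.46 to -0.35 for Cubn, -1.32 to -0.23 for Sox7, -0.55 to -0.08 for Dab2 and 0.50 to 1.59 for Amn. The value nearest 0 came from limma on log2(TPM + 1), which understates low genes, except for Dab2. Sox7 kept an adjusted p between 0.0727 and 0.222. Sox7 and Amn were not tested with at least 10 counts in every sample.

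The number of the 8 genes that rose was 0 in DESeq2 and 0 with at least 10 counts in every sample, and between 0 and 1 without 1 library, and the number that fell was between 4 and 5. With at least 10 counts in every sample, 0 GATA and SOXF genes, 1 other endoderm factor and 1 endoderm product rose. Basement membrane genes that rose numbered 2 in DESeq2, with upper-quartile normalization, with the replicate block and in both limma fits. Without 1 library, between 0 and 1 GATA and SOXF genes, and between 1 and 2 in each of the other endoderm factors, the endoderm products and the basement membrane genes, rose. Over the whole table, leaving out a library gave between 2100 and 3609 lower and between 2144 and 3572 higher genes, with the fewest without EpiLC replicate 1. The cause was not tested. The median of all genes stayed between -0.02 and 0.06 on the log2 scale over the settings.

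Both groups are numbered from 1 to 3 in the labels, and deviations of same-numbered libraries from their group means correlated at 0.01, 0.19 and 0.17, which does not show that the numbers pair them, and ESC replicate 1 correlated best with EpiLC replicate 3 (0.08). With the replicate block, 5 of the 8 genes fell and 1 rose, 3106 genes were lower and 2979 higher over the whole table, and 1 endoderm product and 2 basement membrane genes rose.

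Depth limits Sox7, Amn and the EpiLC values of Gata6 and Sox17 most, as each rests on 25 counts or fewer a library.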
